A study of Homo sapiens with 12 samples.

Results

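The genes described here are 44 genes of homologous recombination, the Fanconi anemia pathway and the DNA damage checkpoint, chosen by name and not by their values from the 23064 gene symbols counted in each of 2 bladder carcinoma cell lines. All 44 were counted in both lines and all 44 passed the filter on low counts in both. The established human cell lines CAL-29 and 5637, whose genotype the labels give as WT, were transfected with a control siRNA (siCtrl) or with an siRNA against KMT9α (siKMT9α), and RNA was taken on day 3. Each of the 4 groups held 3 libraries, 12 in all. KMT9α, encoded by *N6AMT1*, is the catalytic subunit of a methyltransferase that it forms with TRMT112. The knockdown is transient and rests on 1 siRNA, and medium, transfection reagent and siRNA concentration differed between the lines, so these cannot be told apart from the cell line. The labels do not say whether the libraries of a group came from separate cultures, so the p-values measure the spread between these libraries, which may be technical.

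Homologous recombination repairs a DNA double-strand break by copying the intact sister chromatid. The MRE11-RAD50-NBN complex and RBBP8 open the break, EXO1 and DNA2 resect its ends, BRCA1, PALB2 and BRCA2 prepare the resected strand for invasion, XRCC2, XRCC3 and the RAD54 proteins assist strand invasion, and BLM with TOP3A, RMI1 and RMI2, or nucleases such as MUS81-EME1, take the joined strands apart. The Fanconi anemia core complex and its ubiquitin-conjugating enzyme UBE2T mark FANCD2 and FANCI at DNA crosslinks of the kind that platinum drugs make, drugs that are in standard use against bladder cancer. Many of these genes are transcribed mostly in S and G2 phase, when a sister chromatid is present.

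Stretches of sequence are printed first, and their part in the results was not tested. The promoters of *XRCC2* and *EXO1*, which were higher after knockdown in both lines, and of *FANCD2*, whose direction differed between the lines and which was added after its values were seen, each held an E2F-type word. No such word was found for *BRIP1*, *CHEK2*, *RAD51AP1*, *RAD54L*, *RBBP8* or *XRCC3*, also called in the same direction in both lines. E2F factors are known activators of genes of S phase. Each window runs from 250 bases before to 50 bases after a RefSeq transcription start, on the strand of the gene, with the matching word in capitals. The build of these 3 windows is GRCh38.p14, and they lie at chr7:152676092-152676391 on the minus strand (*XRCC2*), chr1:241847954-241848253 on the plus strand (*EXO1*) and chr3:10026187-10026486 on the plus strand (*FANCD2*). A further window of *EXO1*, at chr1:241848481-241848780, held no such word.
XRCC2 promoter: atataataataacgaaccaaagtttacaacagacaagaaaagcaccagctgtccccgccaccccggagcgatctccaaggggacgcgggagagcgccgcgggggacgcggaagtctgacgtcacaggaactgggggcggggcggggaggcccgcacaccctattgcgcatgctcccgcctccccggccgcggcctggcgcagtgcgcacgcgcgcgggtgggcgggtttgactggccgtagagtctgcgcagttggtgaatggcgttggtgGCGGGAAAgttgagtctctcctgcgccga
EXO1 promoter: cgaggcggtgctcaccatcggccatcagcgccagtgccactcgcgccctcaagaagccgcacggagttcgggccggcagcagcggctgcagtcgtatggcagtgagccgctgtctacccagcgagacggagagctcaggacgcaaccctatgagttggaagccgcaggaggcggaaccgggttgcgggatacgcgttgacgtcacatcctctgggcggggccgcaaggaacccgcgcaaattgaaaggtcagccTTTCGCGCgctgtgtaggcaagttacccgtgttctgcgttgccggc
FANCD2 promoter: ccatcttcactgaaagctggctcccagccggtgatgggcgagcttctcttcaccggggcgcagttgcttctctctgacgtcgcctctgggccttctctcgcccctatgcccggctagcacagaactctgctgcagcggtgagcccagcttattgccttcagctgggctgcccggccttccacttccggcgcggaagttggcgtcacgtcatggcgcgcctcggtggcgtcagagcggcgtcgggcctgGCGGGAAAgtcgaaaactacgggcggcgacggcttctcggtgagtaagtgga

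An siRNA can also act on transcripts other than its target through positions 2 to 8 of its guide strand. For siKMT9α, with the strand complementary to the *N6AMT1* mRNA taken as the guide, the matching 7-base site is ACATTCA. It was found in the longest annotated 3′ UTR of 5 of the 44 genes. All 6 sites are shown in capitals within 29 bases of the transcript strand. *BRIP1*, with a pair of them, fell most among the 44 in both lines, and *FANCI*, with 1, rose in both. The part of the sites in these changes was not tested. Coordinates are of hg19, as for the counts.
RAD52, chr12:1022160-1022188, minus strand: agcaattgtctACATTCAgttgttttgca
BRIP1, chr17:59759354-59759382, minus strand: attccaaaaatACATTCAttgatctcttt
BRIP1, chr17:59756873-59756901, minus strand: atttatgtgacACATTCAatgcatatgaa
FANCI, chr15:89860431-89860459, plus strand: aacatcatatcACATTCActctggacaca
MRE11, chr11:94151149-94151177, minus strand: caggaatgaaaACATTCAgaggaagacat
ATR, chr3:142168098-142168126, minus strand: taaaataatatACATTCAgttattaagaa

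Libraries held between 24479348.5 and 35151256.5 counts, and each of the 44 genes had between 64.5 and 12827.5 counts in a library. Levels are given as CPM, the counts of a gene relative to the TMM-scaled total of its library, with each line scaled on its own, and a difference is the log2 fold change of siKMT9α over siCtrl with its SE. *N6AMT1* (chr21:30244513-30257693, minus strand) was at 11.4, 10.2 and 9.67 CPM in the siCtrl and at 2.82, 2.93 and 1.99 CPM in the siKMT9α libraries of CAL-29 cells (-2.00 on the log2 scale). The 5637 libraries were at 13.4, 13.2 and 13.3 CPM against 3.78, 2.22 and 2.59 CPM (-2.22 on the log2 scale). The groups did not overlap in either line, and the exact two-sided permutation p of 0.1 is the smallest that 3 against 3 libraries can give. The marker levels that follow are CPM relative to the total counts of a library, without TMM scaling. Of 13 urothelial carcinoma markers, 10 in CAL-29 and 8 in 5637 cells were at 10 CPM or more in every library, keratins and *GATA3* among them. Their summed level was lower after knockdown, 6703 to 6827 CPM against 13040 to 13700 CPM in CAL-29 and 5829 to 5989 CPM against 8903 to 9216 CPM in 5637 cells, and its part in the results below was not tested. The 5 immune markers summed to between 3.53 and 15.4 CPM and the 4 endothelial markers to between 0.87 and 13.4 CPM in any library. The B-cell marker *MS4A1* was at 0 throughout, and *CD68* alone of the immune markers reached 10 CPM in every library of a group, that of CAL-29 siKMT9α. The 5 fibroblast markers summed to at most 6.27 CPM in 5637 cells, and in CAL-29 cells to 114 to 130 CPM with siCtrl and 53.0 to 54.5 CPM with siKMT9α, nearly all from *FAP*, while *DCN*, *LUM*, *PDGFRA* and *PDGFRB* stayed below 1 CPM.

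In CAL-29 cells the knockdown raised a large share of the 44 genes and lowered few. A gene was called at an unadjusted p below 1e-06 in edgeR's quasi-likelihood test, and each edgeR adjusted p is from the same test with Benjamini-Hochberg adjustment over all genes. By this rule 16 genes were higher and 2 lower, against 14.9% higher and 15.0% lower of the 14682 genes tested. At an adjusted p below 0.05 in edgeR's test, 28 were higher and 5 lower, against 34.3% and 35.3% of all genes. The median log2 fold change was 0.39 over the 44 genes and -0.02 over all genes. Of the 18 calls, 13 held under all 16 alternatives that kept this threshold, and the others were lost under 1 (*FANCG*), 4 (*MUS81* and *RMI2*), 5 (*RBBP8*) or 6 of them (*RAD51D*). Genes not called passed under 7 (*CHEK1* and *UBE2T*), 6 (*FANCC*, *RAD51C* and *TOP3A*) or 2 of them (*BARD1*). In these bulk libraries, more cells in S or G2 phase and more RNA per cell cannot be told apart.

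In 5637 cells the same genes moved both ways and less far than in CAL-29 cells, with counts near the shares of all genes. By the same rule 10 genes were higher and 7 lower, against 17.9% and 17.5% of the 14367 genes tested. At an adjusted p below 0.05 in edgeR's test, 19 were higher and 14 lower, against 35.0% and 35.6% of all genes. The median log2 fold change was 0.05 over the 44 genes and -0.01 over all genes. In absolute size the median was 0.309 over the 44 genes and 0.315 over all genes. With libraries scaled by their total counts the split of the calls was 6 higher and 7 lower, and without siCtrl replicate 3 it was 6 and 5. Of the 17 calls, 10 held under all 16 alternatives that kept the threshold, and the others were lost under 1 (*RAD51AP1*), 5 (*CHEK2* and *FANCL*), 6 (*EXO1*), 7 (*RMI2*) or 9 of them (*FANCI* and *XRCC2*). Genes not called passed under 4 (*MDC1*), 3 (*ATR* and *FANCE*), 2 (*FANCG*, *MUS81*, *RAD51D* and *RMI1*) or 1 of them (*BRCA2* and *FANCA*).

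**Figure D1:**
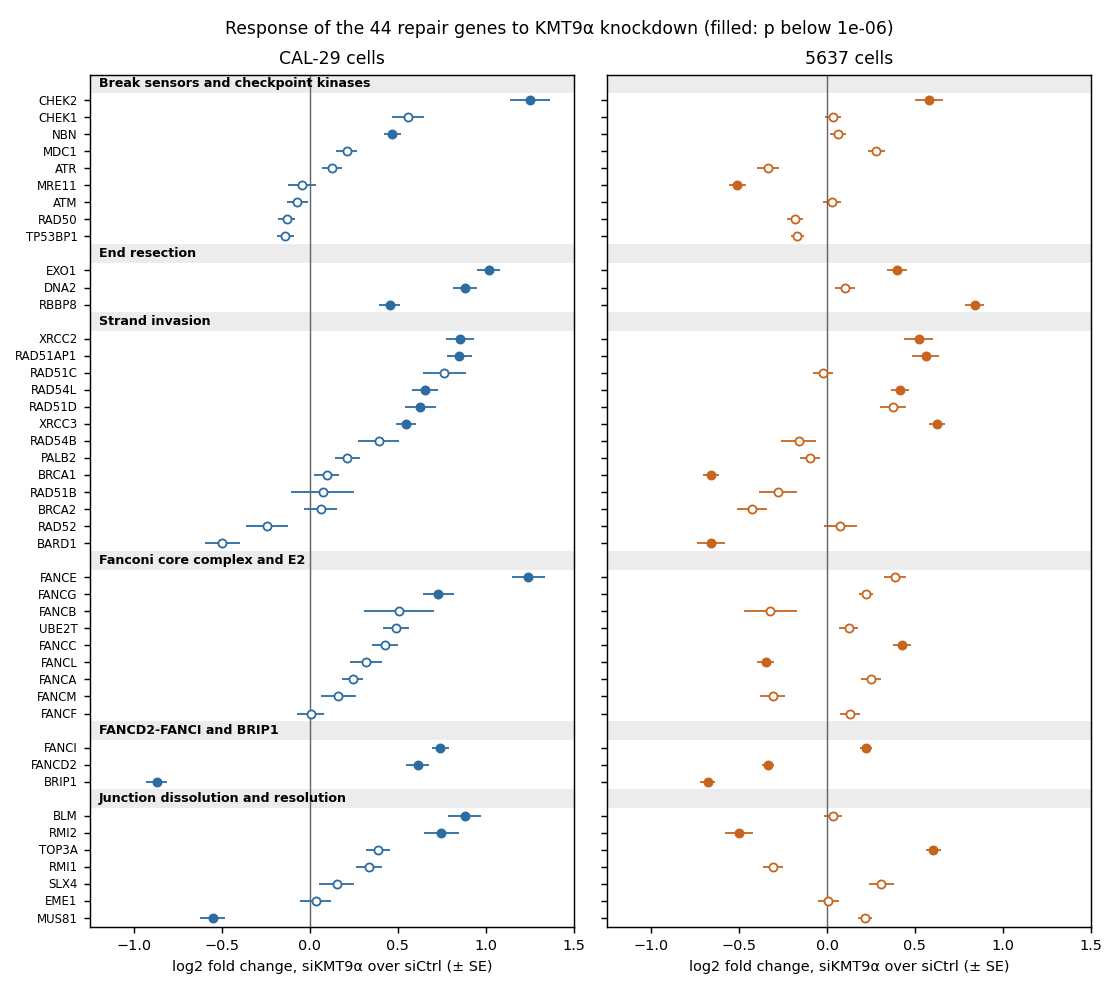
Log2 fold change of siKMT9α over siCtrl (x axis) for each of the 44 genes (y axis, by role), with 1 SE to each side and filled points for genes called at p below 1e-06. In CAL-29 cells (left) 16 filled points lie above 0 and 2 below, and in 5637 cells (right) 10 lie above 0 and 7 below.

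The genes are taken below by role, in groups of 3 to 13. Their counts stand against 14.9% higher and 15.0% lower of all genes in CAL-29, and 17.9% and 17.5% in 5637 cells. They are too small to be results about a group. Among the break sensors and checkpoint kinases, *CHEK2* and *NBN* rose in CAL-29 cells and the other 7 of 9 genes were not called. *CHEK2*, the kinase that acts downstream of *ATM*, showed the largest rise of all 44 genes in this line, at 1.25 ± 0.11 (SE) on the log2 scale. *NBN*, a subunit of the break-sensing complex, rose by 0.47 ± 0.05 (SE, edgeR adjusted p = 4.97e-08) in CAL-29 cells and was at 0.06 in 5637 cells. Its partner *MRE11*, the nuclease of the complex, fell by 0.51 on the log2 scale in 5637 cells (edgeR adjusted p = 6.59e-10) and was at -0.05 in CAL-29 cells. The remaining subunit, *RAD50*, was not called, at -0.13 and -0.18, and 76.9% of its exon bases are shared with other annotated genes on its strand. The large kinases *ATM*, at -0.07 in CAL-29 and 0.03 in 5637 cells, and *ATR*, at 0.13 and -0.34, were not called, nor were the scaffold proteins *MDC1*, at 0.21 and 0.28, and *TP53BP1*, at -0.14 and -0.17. *CHEK1*, the kinase downstream of *ATR*, was at 0.56 (edgeR adjusted p = 1.20e-05) in CAL-29 and 0.03 in 5637 cells.

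All 3 end resection genes rose in CAL-29 cells, and *EXO1* and *RBBP8* also rose in 5637 cells. The exonuclease gene *EXO1* rose by 1.02 ± 0.06 (SE) and the nuclease-helicase gene *DNA2* by 0.88 ± 0.07 (SE) in CAL-29 cells. *RBBP8*, which encodes the resection factor CtIP, was the only one of the 3 with the larger rise in 5637 cells, 0.84 against 0.45. The difference of these rises was not called in the test between the lines (-0.37, edgeR's glmTreat adjusted p = 1).

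Of the 13 strand invasion genes, 5 rose and none was called lower in CAL-29 cells, while 4 rose and 2 fell in 5637 cells. Of all genes, 14.9% were higher and 15.0% lower in CAL-29, and 17.9% and 17.5% in 5637 cells. *RAD51AP1*, which stimulates strand invasion, *XRCC2* and *XRCC3*, which act in complexes at resected ends, and the DNA translocase gene *RAD54L* rose in both lines. *RAD51D*, which works in a complex with *XRCC2*, rose by 0.63 ± 0.09 (SE) in CAL-29 cells and was at 0.37 (edgeR adjusted p = 4.09e-05) in 5637 cells. *BARD1* and *BRCA1*, which together form a ubiquitin ligase, both fell in 5637 cells by 0.66 on the log2 scale, and in CAL-29 cells *BARD1* was at -0.50 (edgeR adjusted p = 0.000173) and *BRCA1* at 0.09. The mediator genes *PALB2* (0.21 and -0.10) and *BRCA2* (0.06 and -0.43) were not called in CAL-29 or 5637 cells. The same held for *RAD51B* (0.07 and -0.28), *RAD51C* (0.76 and -0.02), *RAD52* (-0.24 and 0.08) and *RAD54B* (0.39 and -0.16), and 66.0% of the exon bases of *RAD54B* are shared with *FSBP* on the same strand. In CAL-29 cells *RAD51C*, at 0.76 ± 0.12 (SE, edgeR adjusted p = 1.29e-05), missed the call but passed it under 6 of 16 alternatives.

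Within the Fanconi core complex and its E2 enzyme, *FANCE* and *FANCG* rose in CAL-29 cells, and in 5637 cells *FANCC* rose and *FANCL* fell. *FANCG*, an adaptor of the core complex, went from 22.4, 24.7 and 17.8 CPM to 34.2, 36.3 and 37.1 CPM in CAL-29 cells (0.73 ± 0.09, SE) and was at 0.22 in 5637 cells. *FANCC*, which binds *FANCE* in the complex, was at 0.43 in each line, with an edgeR adjusted p of 2.55e-05 in CAL-29 and 1.94e-08 in 5637 cells, so that only the latter passed the call. *FANCL*, the ubiquitin ligase subunit, fell by 0.35 on the log2 scale in 5637 cells and was at 0.32 (edgeR adjusted p = 0.00423) in CAL-29 cells. The 5 other genes were not called in either line, with log2 fold changes in CAL-29 and 5637 cells of 0.24 and 0.25 for *FANCA*, 0.51 and -0.32 for *FANCB*, 0.00 and 0.13 for *FANCF*, 0.16 and -0.31 for *FANCM*, and 0.49 and 0.12 for *UBE2T*. *FANCB* had the fewest counts of these, 2.44 to 4.70 CPM over all 12 libraries.

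The substrates of the core complex, *FANCD2* and *FANCI*, and the related *BRIP1* responded unequally. *FANCI* rose in both lines, *FANCD2* rose in CAL-29 and fell in 5637 cells, and the helicase gene *BRIP1*, whose protein binds BRCA1 and is also known as FANCJ, fell in both. Among the genes that take joined strands apart, the helicase *BLM* and *RMI2* rose in CAL-29 cells, while in 5637 cells the topoisomerase *TOP3A* rose and *RMI2* fell. *TOP3A* was at 49.9, 49.9 and 53.1 CPM in the siCtrl and 79.1, 75.0 and 78.4 CPM in the siKMT9α libraries of 5637 cells (0.60 ± 0.04, SE), and at 0.39 (edgeR adjusted p = 3.41e-05) in CAL-29 cells. *RMI1* was not called, at 0.33 and -0.31, nor were the nuclease scaffold *SLX4*, at 0.15 and 0.31, and *EME1*, at 0.03 and 0.01. The nuclease *MUS81* fell in CAL-29 cells, from 57.5, 53.6 and 50.9 CPM to 38.9, 32.5 and 39.2 CPM (-0.55 ± 0.07, SE, edgeR adjusted p = 5.62e-07). In 5637 cells *MUS81* was at 67.5, 68.3 and 63.8 CPM against 78.5, 77.4 and 75.9 CPM, a value of 0.22 that did not pass the call (edgeR adjusted p = 2.95e-05). Of its exon bases, 14.1% lie opposite *CFL1* and *EFEMP2*, and *EFEMP2* itself changed by -2.23 in CAL-29 and -2.13 in 5637 cells, with few counts. *CFL1*, with a mean of 18281 counts in CAL-29 and 34546.5 in 5637 cells, changed by -0.18 and 0.01. Exon bases of *TP53BP1* (28.8%, *TUBGCP4*), *FANCA* (19.6%, *ZNF276*) and *EME1* (16.4%, *LRRC59*) also lie opposite another gene. The study's methods state default settings of HOMER for the counting without naming the strand option, so whether reads of such opposite genes were kept apart is not known here.

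There were 9 genes called in the same direction in both lines, 8 higher and *BRIP1* lower. The share of all genes called alike in both lines was not counted here. The study reports that most genes changed in both lines moved the same way. The count of 9 is therefore no result particular to these repair genes. In CAL-29 cells *BRIP1* (chr17:59756500-59940920, minus strand, hg19 as for all genes below) was at 69.0, 66.3 and 61.1 CPM with siCtrl and at 35.8, 34.7 and 36.9 CPM with siKMT9α (-0.87 ± 0.06, SE, edgeR adjusted p = 3.58e-11). Its 5637 libraries went from 90.1, 85.2 and 88.5 CPM to 57.6, 53.5 and 53.7 CPM (-0.68 ± 0.04, SE, edgeR adjusted p = 2.36e-14). Every siKMT9α library of a line was thus well below every siCtrl library. *BRIP1* is one of the genes with the site printed above, whose part in this fall was not tested.

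*CHEK2* (chr22:29083731-29138410, minus strand) rose from 5.83, 6.84 and 7.67 CPM to 16.1, 17.9 and 14.3 CPM in CAL-29 cells (edgeR adjusted p = 5.04e-09). Levels in 5637 cells rose from 10.8, 9.34 and 9.31 CPM to 14.5, 14.6 and 14.9 CPM, by 0.58 ± 0.08 on the log2 scale (SE, edgeR adjusted p = 3.67e-07). The 3 siKMT9α libraries of 5637 cells were nearly equal and all above the siCtrl libraries. *CHEK2* has pseudogene copies elsewhere in the genome, among which the counting may have split reads.

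*RAD51AP1* (chr12:4647964-4669213, plus strand) rose from 23.7, 24.4 and 26.7 CPM to 46.2, 47.6 and 40.8 CPM in CAL-29 cells (0.85 ± 0.07, SE, edgeR adjusted p = 9.74e-10). In 5637 cells its siCtrl libraries were at 14.4, 12.3 and 13.1 CPM and its siKMT9α libraries at 18.3, 21.3 and 19.2 CPM (0.56 ± 0.08, SE, edgeR adjusted p = 2.07e-07). The groups did not overlap in either line, with more spread among the siKMT9α libraries.

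*XRCC2* (chr7:152341861-152373278, minus strand) and *XRCC3* (chr14:104163946-104181841, minus strand) rose with no overlap between the groups of a line. *XRCC2* was at 13.0, 12.6 and 13.3 CPM against 24.1, 24.0 and 22.3 CPM in CAL-29 cells (0.85 ± 0.08, SE) and at 11.7, 11.2 and 11 CPM against 17.8, 14.1 and 16.9 CPM in 5637 cells (0.52 ± 0.08, SE). The low siKMT9α library of 5637 cells, replicate 2, was still above all siCtrl libraries. *XRCC3* was at 34.0, 34.3 and 34.1 CPM against 51.6, 49.3 and 48.2 CPM in CAL-29 cells (0.54 ± 0.06, SE) and at 42.2, 40.1 and 40.8 CPM against 61.7, 63.1 and 65 CPM in 5637 cells (0.63 ± 0.04, SE). Of the exon bases of *XRCC3*, 76.7% lie opposite *KLC1*, which changed by -0.30 in CAL-29 and 0.19 in 5637 cells.

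*RBBP8* (chr18:20378224-20606451, plus strand) was at 40.7, 40.2 and 46.8 CPM with siCtrl and 58.1, 57.1 and 59.6 CPM with siKMT9α in CAL-29 cells (edgeR adjusted p = 1.38e-06). The 5637 libraries rose from 25.2, 24.4 and 25.0 CPM to 43.2, 47.7 and 42.9 CPM (0.84 ± 0.05, SE, edgeR adjusted p = 5.66e-14). This was the largest rise among the 44 genes in 5637 cells, where the siCtrl libraries were close together. *EXO1* (chr1:242011269-242058450, plus strand) was at 23.5, 25.0 and 22.0 CPM against 49.5, 46.8 and 46.2 CPM in CAL-29 cells (edgeR adjusted p = 1.50e-11). With 5637 cells the values were 25.5, 26.2 and 24.5 CPM against 31.2, 34.0 and 34.8 CPM (0.40 ± 0.06, SE, edgeR adjusted p = 5.47e-07). The siKMT9α libraries were the higher ones in both lines, with the wider gap in CAL-29 cells.

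*RAD54L* (chr1:46712133-46744152, plus strand) rose from 24.4, 21.6 and 20.4 CPM to 34.4, 35.3 and 34.6 CPM in CAL-29 cells (0.65 ± 0.07, SE). Among 5637 libraries it rose from 33.4, 30.6 and 32.1 CPM to 41.4, 44.5 and 42.3 CPM (0.41 ± 0.05, SE). Of its exon bases, 19.9% lie opposite *LRRC41*, which changed by -0.18 and -0.24. *FANCI* (chr15:89787176-89860492, plus strand) was at 102, 103 and 109 CPM against 173, 181 and 170 CPM in CAL-29 cells (0.74 ± 0.05, SE, edgeR adjusted p = 1.76e-11). Its 5637 libraries were at 154, 154 and 153 CPM against 183, 176 and 178 CPM (0.22 ± 0.03, SE, edgeR adjusted p = 9.69e-07). The rise of *FANCI* in 5637 cells is the smallest of the calls in that line. Its call was lost under 9 of 16 alternatives, among them each single library of the line left out.

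**Figure D2:**
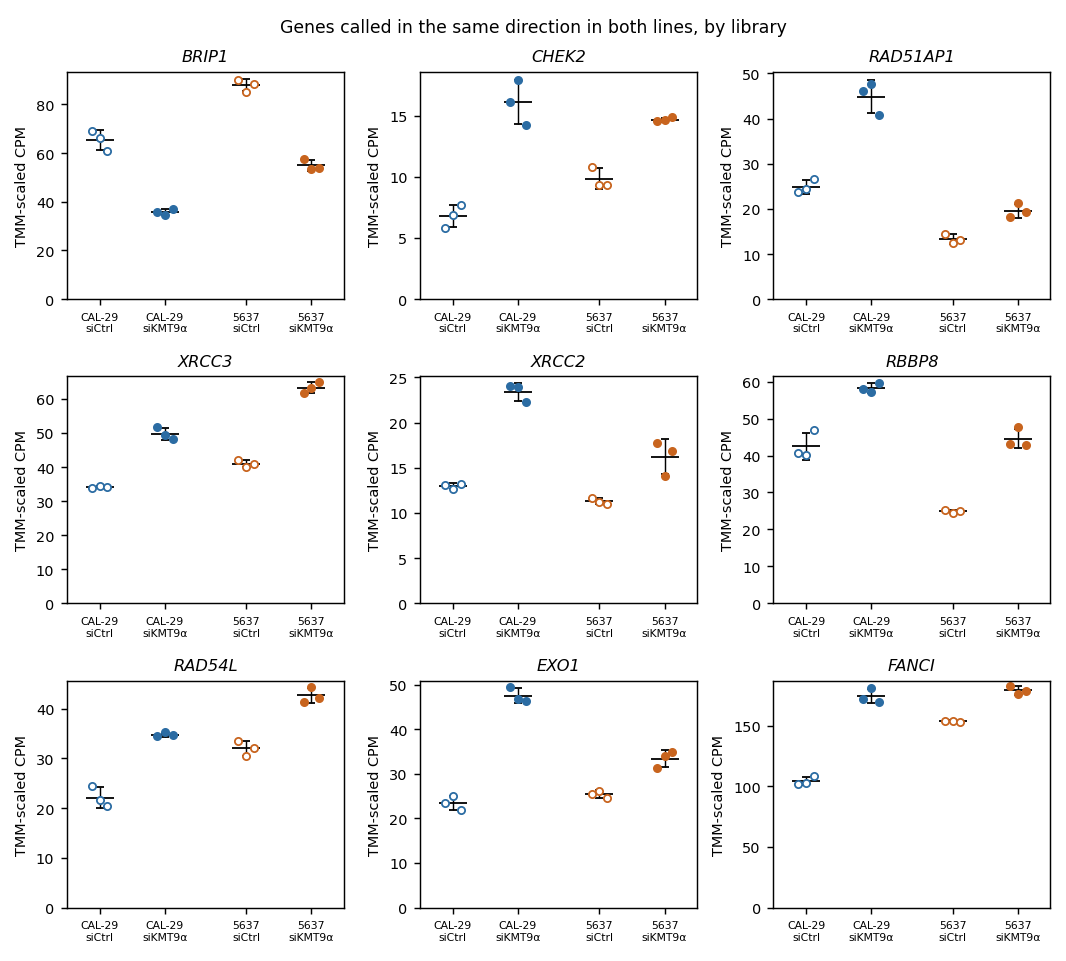
TMM-scaled CPM (y axis, from 0, each line scaled on its own) of the 9 genes called in the same direction in both lines, with 1 point per library (open siCtrl, filled siKMT9α) and the mean ± SD of 3 libraries in black. *BRIP1* fell in both lines and the other 8 genes rose, with no overlap between the groups of a line. The genes were chosen by their p in these same libraries, so the lack of overlap is no further support.

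*FANCD2* and *RMI2* were called in opposite directions in the lines. *FANCD2* (chr3:10068054-10143616, plus strand) was at 25.8, 27.7 and 25.0 CPM with siCtrl and 39.3, 41.9 and 38.6 CPM with siKMT9α in CAL-29 cells (0.61 ± 0.06, SE, edgeR adjusted p = 4.21e-08). The values in 5637 cells were 381, 368 and 360 CPM against 302, 285 and 291 CPM (-0.34 ± 0.03, SE, edgeR adjusted p = 4.12e-10). No siKMT9α library overlapped the siCtrl libraries of its line, the higher group being siKMT9α in CAL-29 and siCtrl in 5637 cells. *FANCD2* also has pseudogene copies, and reads of near-identical copies may have been split in the counting.

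*RMI2* (chr16:11343476-11475519, plus strand) rose from 9.38, 11 and 11.1 CPM to 19.3, 17.3 and 16.3 CPM in CAL-29 cells (0.75 ± 0.10, SE, edgeR adjusted p = 8.12e-07). It fell in 5637 cells from 17.6, 17 and 17.3 CPM to 11.2, 14.0 and 11.6 CPM (-0.50 ± 0.08, SE, edgeR adjusted p = 2.81e-06). The groups did not overlap in either line, although 1 siKMT9α library of 5637 cells, replicate 2, lay nearer to siCtrl than the other two.

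The difference between the responses was tested in a fit of all 12 libraries with edgeR's glmTreat, against a difference of 1.5-fold. By this test 6 of the 44 genes responded differently at an adjusted p below 0.05, all of them higher in CAL-29 cells. Over the 15411 genes tested, 5.77% were higher and 4.98% lower in CAL-29 cells. Larger shares were called higher among the S phase and G2/M genes of Seurat, given below, so this is not particular to the 44 genes. The median difference, CAL-29 minus 5637, was 0.38 over the 44 genes and 0.04 over all genes, and it was above 0 for 34 of the 44. The largest was that of *RMI2*, 1.26 ± 0.13 (SE, edgeR adjusted p = 2.5e-05), followed by *FANCD2*, 0.97 ± 0.07 (SE, edgeR adjusted p = 1.03e-05).

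*FANCE* (chr6:35420115-35434881, plus strand), which ties *FANCD2* to the core complex, was at 9.22, 9.53 and 9.11 CPM with siCtrl and 20.7, 24.4 and 20.6 CPM with siKMT9α in CAL-29 cells (1.24 ± 0.09, SE). In the other line it was at 19.4, 17.6 and 18.4 CPM against 23.2, 25.5 and 23.8 CPM (0.39, edgeR adjusted p = 5.59e-06). The siKMT9α libraries were the higher ones in both lines, and the difference between the responses was 0.87 ± 0.11 (SE, edgeR adjusted p = 0.0195). *BLM* (chr15:91260577-91359396, plus strand) went from 15.6, 12.5 and 16.3 CPM to 26.9, 29.7 and 24.9 CPM in CAL-29 cells (0.88 ± 0.09, SE). In 5637 cells its libraries overlapped, at 33.7, 31.9 and 33.8 CPM against 35.0, 33.4 and 33.5 CPM, and the difference was 0.86 ± 0.11 (SE, edgeR adjusted p = 0.0182).

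*DNA2* (chr10:70173821-70231878, minus strand) was at 19.3, 18.3 and 18.6 CPM against 35.4, 34.7 and 33.4 CPM in CAL-29 cells. Its libraries in 5637 cells stood close together at 25.9, 24.8 and 27.0 CPM against 27.1, 28.3 and 28.2 CPM (0.10, edgeR adjusted p = 0.105). The difference was 0.80 ± 0.08 (SE, edgeR adjusted p = 0.0233). *BRCA1* (chr17:41196312-41322262, minus strand) was at 23.6, 25.2 and 25.4 CPM against 25.6, 27.8 and 25.6 CPM in CAL-29 cells (0.09, edgeR adjusted p = 0.234). Its 5637 libraries fell from 76.6, 71.3 and 73.4 CPM to 45.8, 45.1 and 49.2 CPM (-0.66 ± 0.05, SE), with all siKMT9α below all siCtrl libraries, whereas the groups of CAL-29 cells lay close together. The difference for *BRCA1* was 0.77 ± 0.08 (SE, edgeR adjusted p = 0.0327). *FANCD2* and *RMI2* passed this test under every alternative run, while the calls of *BLM*, *BRCA1*, *DNA2* and *FANCE* were each lost when 1 of some libraries was left out, that of *BRCA1* also with DESeq2 size factors. Without CAL-29 siKMT9α replicate 2 the test called 3 genes.

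The difference for *MUS81*, -0.75 ± 0.08 (SE), was the largest in the other direction and did not pass the test (edgeR adjusted p = 0.0563). It was near the threshold, and passed with DESeq2 size factors, without a filter, with the replicate block and without CAL-29 siCtrl replicate 3, siKMT9α replicate 1 or siKMT9α replicate 3. For the remaining genes called in 1 line only, the difference between the lines was likewise not called, among them *FANCG* (0.52), *NBN* (0.42), *MRE11* (0.48), *FANCL* (0.68), *TOP3A* (-0.20) and *BARD1* (0.18).

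**Figure D3:**
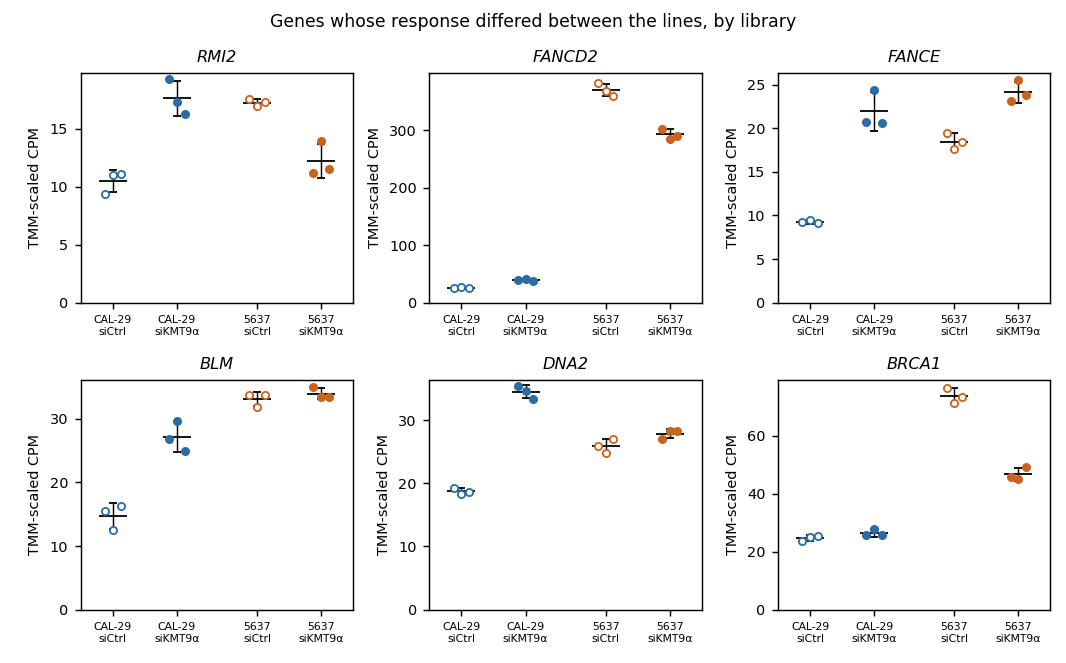
TMM-scaled CPM (y axis, from 0, each line scaled on its own) of the 6 genes whose response differed between the lines, with 1 point per library (open siCtrl, filled siKMT9α) and the mean ± SD of 3 libraries in black. *RMI2* and *FANCD2* went up in CAL-29 and down in 5637 cells, *BRCA1* went down in 5637 cells, and *FANCE*, *BLM* and *DNA2* rose in CAL-29 cells.

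Without knockdown, most of the genes that differed between the lines were lower in CAL-29 cells. In the joint fit, whose CPM values are scaled over all 12 libraries, 3 of the 44 genes were higher and 14 lower in siCtrl CAL-29 than in siCtrl 5637 cells beyond 1.5-fold (edgeR's glmTreat, adjusted p below 0.05). Of all genes 25.9% were higher and 25.6% lower. The median difference was -0.44 over the 44 genes and 0.01 over all genes. The cell line cannot be told apart here from its medium and reagent.

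By far the largest difference was that of *FANCD2*, at 25.0, 26.9 and 24.3 CPM in the siCtrl libraries of CAL-29 and 390, 375 and 367 CPM in those of 5637 cells (log2 difference -3.89 ± 0.05, SE, edgeR adjusted p = 3.61e-30). Its level was thus 14.8-fold higher in 5637 cells. *RAD51C* (chr17:56769934-56812972, plus strand), whose protein pairs with that of *XRCC3*, was at 5.74, 6.2 and 8.13 CPM against 26.7, 27.3 and 27.5 CPM (-2.02 ± 0.09, SE). *FANCL* (chr2:58386378-58468545, minus strand) was at 13.3, 15.0 and 17.5 CPM against 53.1, 49.3 and 55.6 CPM (-1.78 ± 0.07, SE), and *CHEK1* (chr11:125495058-125546150, plus strand) at 14.4, 17.7 and 16.9 CPM against 55.0, 51.6 and 55.2 CPM (-1.72 ± 0.07, SE). No library of one line reached the other for any of these 4 genes. Of the exon bases of *CHEK1*, 13.4% lie opposite *STT3A*.

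The other genes lower in CAL-29 cells, in order of the log2 difference, were *BRCA1* (-1.65), *FANCG* (-1.52), *RAD51B* (-1.49), *BLM* (-1.23), *FANCE* (-1.06), *MRE11* (-0.87), *FANCC* (-0.83), *RMI2* (-0.78), *FANCM* (-0.77) and *RMI1* (-0.74). Neighbours in this order differed by less than their SE in several places, as for *MRE11* and *FANCC*. The core complex and its E2 held 5 of these 14 genes. *FANCD2*, *FANCI*, *BRIP1* and all 7 genes of the dissolution and resolution group had values below 0. Higher in CAL-29 cells were *RAD50* (1.03), *RAD51AP1* (0.84) and *RBBP8* (0.71). The response and the siCtrl comparison share the siCtrl libraries, so that their values are not independent. Side by side, the difference in response and the siCtrl difference were 1.26 and -0.78 for *RMI2*, 0.97 and -3.89 for *FANCD2*, 0.87 and -1.06 for *FANCE*, 0.86 and -1.23 for *BLM*, 0.80 and -0.54 for *DNA2*, and 0.77 and -1.65 for *BRCA1*.

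**Figure D4:**
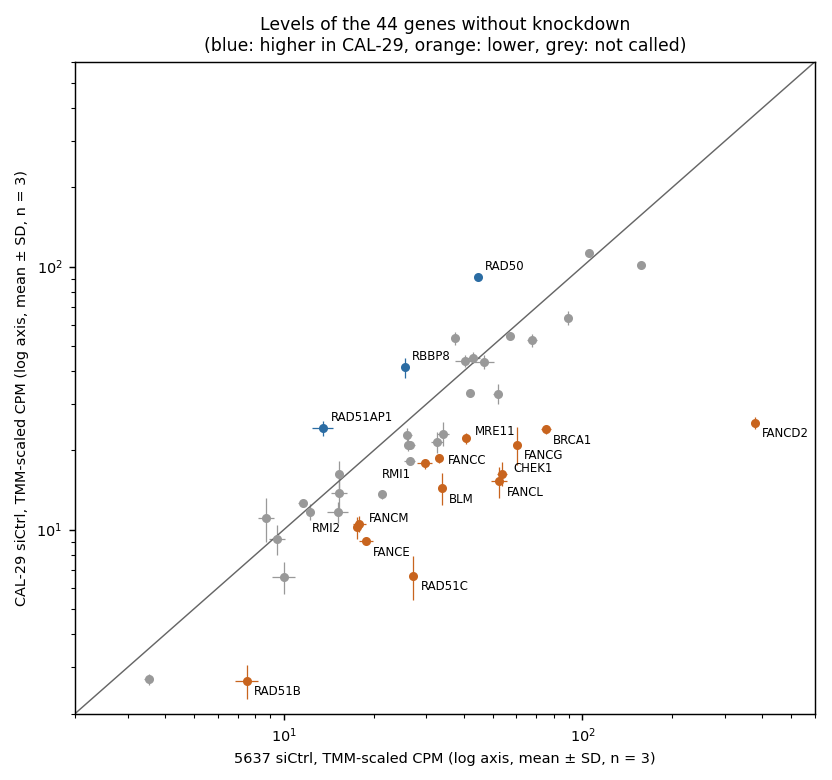
Mean TMM-scaled CPM ± SD (n = 3) of the 44 genes in siCtrl 5637 (x axis, log) and siCtrl CAL-29 cells (y axis, log), with the line of equal levels. The 14 orange points lie below the line, *FANCD2* farthest, and the 3 blue points, *RAD50*, *RAD51AP1* and *RBBP8*, above it.

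A further list held 50 recombination, Fanconi and checkpoint genes outside the 44. Of the 48 tested in CAL-29 cells, 9 were higher and 2 lower (median 0.24), against 14.9% and 15.0% of all genes. Of the 49 tested in 5637 cells, 8 were higher and 7 lower (median 0.05), against 17.9% and 17.5%. The counts in 5637 cells and that of higher genes in CAL-29 cells were thus near those shares of all genes. *ERCC4*, which encodes the crosslink-cutting nuclease subunit XPF, was the gene of this list with the largest change among the called in both lines, from 17.4, 18.5 and 15.9 CPM to 8.05, 6.80 and 8.63 CPM in CAL-29 cells (-1.15 ± 0.10, SE) and from 9.90, 10.7 and 9.40 CPM to 5.55, 4.98 and 6.2 CPM in 5637 cells (-0.83 ± 0.10, SE). *CENPX*, which with FANCM anchors the core complex on DNA, rose by 0.77 and 0.70. *SWI5*, which also acts in strand exchange, fell by 0.69 on the log2 scale in 5637 cells and was at -0.64 (edgeR adjusted p = 2.04e-05) in CAL-29 cells.

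End joining, the alternative route of break repair, was listed with 14 genes, of which 3 were higher and 1 lower in CAL-29 and 2 higher and 2 lower in 5637 cells. These counts stand against 14.9% and 15.0% of all genes in CAL-29 and 17.9% and 17.5% in 5637 cells, and are no result about this list. The medians were 0.20 and -0.08. *PAXX* (0.72 and 0.65) and the nuclease *DCLRE1C*, known as Artemis (0.71 and 0.73), rose in both lines. The ligase *LIG4* fell by 0.70 on the log2 scale in CAL-29 cells and was at -0.39 in 5637 cells, and *POLQ*, the polymerase of microhomology-mediated joining, fell by 0.49 in 5637 cells and was at 0.30 in CAL-29 cells.

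Most genes of the S phase and G2/M lists of Seurat, which mark cycling cells, were also higher in CAL-29 cells after knockdown. Of the Seurat S phase list, 39 genes are not among the 44, and of these 28 were higher and 2 lower in CAL-29 cells (median 0.56), against 4 higher and 9 lower in 5637 cells (median -0.02). Of the 54 genes of the G2/M list, 45 were higher and 2 lower in CAL-29 cells (median 1.08), and 27 were higher and 5 lower in 5637 cells (median 0.27). Of all genes, 14.9% were higher and 15.0% lower in CAL-29, and 17.9% and 17.5% in 5637 cells. The S phase counts in 5637 cells were not far from those shares. In siCtrl CAL-29 against siCtrl 5637 cells, none of the 39 S phase genes was higher and 31 were lower, and 1 of the G2/M genes was higher and 23 lower. In that comparison 25.9% of all genes were higher and 25.6% lower. In the test of the difference between the responses, 15 of the 39 S phase genes were higher in CAL-29 cells and 0 lower (median 0.61). Of the 54 G2/M genes 28 were higher and 0 lower (median 0.81). For the 44 genes these values were 6 and 0 (median 0.38), and for 49 other repair genes 1 and 0 (median 0.21). Of all genes 5.77% were higher and 4.98% lower. The part of cell cycle phase in the levels and responses of the repair genes was not tested.

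The site of the siRNA in the longest 3′ UTR was in 11.4% of the 44 genes and in 15.4% of the 12408 genes tested in both lines with a 3′ UTR of at least 50 bases. It was in 2 of the 8 genes called lower in either line (*BRIP1* and *MRE11*), in 1 of the 18 called higher in either line (*FANCI*) and in 2 of the 20 called in neither line (*RAD52* and *ATR*), with *FANCD2* and *RMI2* counted as both lower and higher. Over all genes tested, the median log2 fold change with and without a site was -0.26 and 0.04 in CAL-29, and -0.31 and 0.03 in 5637 cells. For the 44 genes the medians were -0.05 and 0.43 in CAL-29, and -0.34 and 0.06 in 5637 cells, over 5 genes with and 39 without a site. The part of the site in the fall of *BRIP1* and *MRE11* was not tested.

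Promoter windows were found for 39 of the 44 genes. An E2F-type word was TTTCCCGC, TTTCGCGC, TTTGCCGC or TTTGGCGC on either strand. A gene with several windows was counted if any of them held the word. It was in 6 of the 39 genes (15.4%) and in 6.24% of the 11638 genes tested that had a window. *EXO1*, *FANCC* and *RMI1* held it in only 1 of their windows. The 6 were *XRCC2*, *EXO1*, *FANCD2*, *FANCA*, *FANCC* and *RMI1*, and the first base of the match was at position 21 from the start for *XRCC2*, 4 for *EXO1* and -2 for *FANCD2*. Of the genes with a window, 3 of 12 higher, 0 of 2 lower and 3 of 25 not called in CAL-29 cells held the word. In 5637 cells it was in 3 of 9 higher, 1 of 6 lower and 2 of 24 not called. CCAAT was in 48.7% of the 39 against 42.3% of all genes, and TTTGAA, the core of the cell cycle homology region, in 12.8% against 13.8%. These are matches of letters in short windows, with few genes in each count, and no test was made of them.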

How the data were processed

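Total RNA of CAL-29 and 5637 cells was sequenced on day 3 after transfection. STAR alignment to hg19 and HOMER quantification were done by the authors, who deposited estimated counts, not normalized, for 37400 RefSeq transcripts per line. These came in steps of 0.5 (37.3% were not whole) and were rounded to whole numbers, with 0.5 rounded up. The authors' 3 columns per line of log2 fold change, p-value and adjusted p-value were not used. All columns of per-sample values were assigned to samples, by the titles and the siRNA name in the column.

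For each symbol the transcript with the most counts in a line was kept; 21 of the 44 genes had several, which share reads. Each line was fitted alone in edgeR 4.0.16 under R 4.3.3 (TMM, filterByExpr by siRNA, quasi-likelihood F test, siRNA as the only term), and the joint fit of 12 libraries had line, siRNA and their interaction, tested with glmTreat against 1.5-fold. The SE is the log2 fold change divided by the square root of F. The threshold of 1e-06 is that of the study's methods. Biological coefficients of variation were 5.08% in CAL-29 and 3.34% in 5637 cells, and replicates differed by more than sampling noise (chi-square per degree of freedom 2.25 to 12.4). The scripts were tested on simulated data. Promoters were RefSeq windows of GRCh38.p14, and gene positions, exon overlaps and 3′ UTRs came from GENCODE v44lift37 on GRCh37, the assembly of hg19 (Python 3.11.15, pandas 2.3.3).

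The 44 genes and all lists were chosen with earlier results of these data known. Values in every library were given by rule for genes called alike in both lines (up to 10), called in opposite directions, called in the interaction (up to 6) and differing most between the siCtrl groups (4), and for the other repair lists the 3 largest changes called in a line were to be named, of which 1 gene is not reported here. Alternatives were other filters, scalings, tests, thresholds, the replicate block, a joint fit, the mean over a symbol's transcripts (added after the data were seen), the shortest 3′ UTR and each library left out.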

Additional observations from a re-analysis of the deposited data

Results flagged for a closer look

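The response to knockdown differed between CAL-29 and 5637 cells for 6 of the 44 genes, by the test of the difference itself (edgeR's glmTreat against 1.5-fold over all 12 libraries, n = 3 libraries per group). As CAL-29 minus 5637 on the log2 scale, the difference was 1.26 for *RMI2*, 0.97 for *FANCD2*, 0.87 for *FANCE*, 0.86 for *BLM*, 0.80 for *DNA2* and 0.77 for *BRCA1*. For *FANCD2* and *RMI2* every siKMT9α library was above every siCtrl library in CAL-29 cells and below in 5637 cells. By the same test, 15 of 39 S phase genes outside the 44 and 28 of 54 G2/M genes were higher in CAL-29 cells, and 0 lower. Of all genes 5.77% were higher and 4.98% lower. Cell line, medium, reagent and siRNA concentration cannot be told apart in this comparison. Groups of 3 libraries are too small for a test of single outlying libraries.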

How the results depend on the processing

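Thresholds, filters and scalings changed how many of the 44 genes were called, and no called gene changed direction in the alternatives run. In CAL-29 cells the 18 calls (16 higher, 2 lower) became 33 (28 and 5) at an adjusted p below 0.05 in edgeR's test and 3 (3 and 0) when log2 fold changes also had to reach 1 in size, and scaling by total counts left 1 lower. In 5637 cells the 17 calls (10 and 7) became 33 (19 and 14) at the adjusted p and 0 (0 and 0) with the limit on size, while 16 were higher without a filter and 6 with scaling by total counts. The other settings gave 16 to 24 calls in CAL-29 and 13 to 25 in 5637 cells. The 6 different responses (6 higher in CAL-29 cells, 0 lower) became 13 (12 and 1) in a test against no difference at p below 1e-06, and *MUS81* was called lower in that test, with DESeq2 size factors (-0.77), without a filter (-0.75), with the replicate block (-0.76) and without CAL-29 siCtrl replicate 3 (-0.79), siKMT9α replicate 1 (-0.79) or siKMT9α replicate 3 (-0.80), which makes 1 lower in each. With DESeq2 size factors 5 were higher, since *BRCA1* (0.75) was lost. The siCtrl comparison went from 17 genes (14 lower in CAL-29 cells) to 27 (23 lower) in that test. With the shortest annotated 3′ UTR, 0 of the 44 genes held the site, against 6.01% of all genes tested in both lines. For settings other than thresholds, the cause was not tested.

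Leaving out 1 library at a time gave 13 to 20 calls in CAL-29 cells (12 to 18 higher, 1 to 2 lower), 11 to 16 in 5637 cells (6 to 9 higher, 5 to 7 lower), 17 to 18 in the siCtrl comparison (2 to 3 higher, 14 to 15 lower) and 3 to 9 different responses (3 to 8 higher, 0 to 1 lower). In 5637 cells it was 11 without siCtrl replicate 3, and 6 were higher without siCtrl replicate 3, siKMT9α replicate 2 or siKMT9α replicate 3. In CAL-29 cells 1 was lower, *BRIP1*, without siCtrl replicate 2, siKMT9α replicate 2 or siKMT9α replicate 3. The different responses numbered 3 without CAL-29 siKMT9α replicate 2, where *BLM* (0.80), *BRCA1* (0.73) and *FANCE* (0.79) were lost, and 9 without CAL-29 siCtrl replicate 3. *BLM* (0.76) was also lost without CAL-29 siCtrl replicate 2, *DNA2* without 5637 siCtrl replicate 3 (0.77) or siKMT9α replicate 1 (0.78), *FANCE* (0.84) without 5637 siCtrl replicate 1, and *BRCA1* (0.74 to 0.76) without CAL-29 siCtrl replicate 1 or 5637 siCtrl replicate 1, siKMT9α replicate 1 or siKMT9α replicate 2. The log2 fold change of *N6AMT1* stayed between -2.09 and -1.85 in CAL-29 and between -2.46 and -2.07 in 5637 cells.

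Values near 0 changed sign, all of them uncalled. With scaling by total counts the log2 fold changes in 5637 cells were -0.027 for *ATM*, -0.020 for *BLM*, -0.020 for *CHEK1* and -0.046 for *EME1*, and in CAL-29 cells 0.0079 for *ATM* and 0.034 for *MRE11*. With upper quartile scaling they were -0.014 for *ATM*, -0.0075 for *BLM*, -0.0075 for *CHEK1* and -0.033 for *EME1* in 5637, and -0.026 for *FANCF* in CAL-29 cells. With at least 10 counts in every library they were -0.0019 for *EME1* in 5637 and -0.0026 for *FANCF* in CAL-29 cells, and with the mean over the transcripts of a symbol 0.019 for *RAD51C* in 5637 cells. Over single libraries left out, the ranges were -0.036 to 0.065 for *ATM*, -0.0026 to 0.021 for *EME1* and -0.046 to 0.0040 for *RAD51C* in 5637 cells, and -0.049 to 0.055 for *FANCF*, -0.12 to 0.029 for *MRE11* and -0.0041 to 0.20 for *RAD51B* in CAL-29 cells. Of the other values of single genes, 1753 kept their direction and side of the threshold, 92 newly passed it and 109 no longer did.

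Deviations of same-numbered libraries from their group means had correlations between -0.011 and 0.082. For differently numbered libraries they were between -0.078 and 0.034. These ranges overlap, so they do not settle whether the replicate numbers of the labels pair the libraries. With the replicate block, 24 genes were called in CAL-29 (21 higher, 3 lower), 17 in 5637 cells (10 and 7) and 7 responses differed. The longest transcript per symbol was not run, since lengths were not used here. The 44 genes had 64.5 counts or more in every library, and the SE was wider where counts were few: *FANCB* in CAL-29 cells, at 0.51 ± 0.20 (SE) with a mean of 94.7 counts, was not called, whereas *NBN*, at 0.47 ± 0.05 (SE) with 1863 counts, was.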
